A study of Mus musculus with 6 samples.

Results

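NFAT5 and the genes of the cell's osmolyte response were examined in C2C12 cells, a mouse line of myoblasts, which are precursors of muscle and form myotubes by fusing. The members were 8 genes, namely Nfat5, Slc5a3, Slc6a6, Slc6a12, Slc38a2, Ranbp3l, Sgk1 and Aqp1, listed for their known roles and with earlier results of these data known. They were found through every probe set of an Affymetrix mouse genome array annotated with 1 gene symbol, that symbol being a member's. This gave 21 probe sets of 34945 with 1 symbol, with 6 for Nfat5, 4 for Slc6a6, 3 each for Slc5a3 and Slc38a2, 2 for Ranbp3l and 1 each for Slc6a12, Sgk1 and Aqp1. The study, by its title, asked whether pyruvate drives mitochondrial biogenesis without PGC-1alpha. It compared 3 samples of C2C12 cells kept for 72 h with 50 mM sodium pyruvate and 3 samples kept for 72 h in basal medium, 1 array each. The cells of both groups, undifferentiated by their labels and with no genotype change named, grew in 100 mm dishes, in DMEM to which L-glutamine (4 mM), fetal bovine serum (10%) and antibiotics (1%) had been added. The DMEM of the pyruvate medium is described as free of sodium pyruvate before the addition, and the labels do not say whether the basal DMEM held any. Since no sample had an equal sodium load or osmolality without pyruvate among those analysed, pyruvate and the added sodium salt cannot be told apart. All samples are of 1 cell line, and the labels do not call the 3 of a group separate cultures. The p-values therefore speak of the spread among these samples alone, and that spread may be technical.

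When the medium becomes hypertonic, water leaves the cell, and cells first take up ions and then replace them with small organic solutes, the osmolytes, such as inositol, taurine, betaine and sorbitol. NFAT5, also called TonEBP, is the transcription factor at the centre of this slower phase. It is related to the calcineurin-regulated NFAT proteins and to NF-kappaB, and it binds the tonicity-responsive enhancer (TonE) of genes for osmolyte transporters and chaperones. The pathway is best known from the kidney medulla, and NFAT5 is also expressed in muscle precursor cells.

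On the brightest probe set of each gene, 6 of the 7 members that could be tested were higher with pyruvate and 0 were lower, and the remaining tested member, Slc38a2, did not pass. Of all 10685 genes tested in the same way, 20.7% were higher and 14.5% lower. Ranbp3l reached the signal filter only through its pyruvate arrays, so its change decided its entry and its call is no support, and under a stricter filter that it did not reach 5 of 6 tested members were higher. A rise of at least 0.5 on the log2 scale was called in Sgk1 and Nfat5 beside Ranbp3l, and in 4.7% of all genes tested. Since the members were listed with results known, these counts describe them and are not independent evidence. The median log2 change was 0.48 over the 7 tested members and 0.03 over all genes tested. Changes were estimated by limma on log2(signal + 16) and called at a Benjamini-Hochberg adjusted p under 0.05, over all probe sets with a mean log2 value of at least 5.53, a signal of about 30.3. On this scale the change of a dim gene is understated. The rise was largest for Ranbp3l and between 0.32 and 0.63 on the log2 scale for Sgk1, Nfat5, Aqp1, Slc5a3 and Slc6a6. Slc6a12 was near 0 on every array and was not tested. Because RNA of whole dishes was measured, more cells expressing a gene and more of its RNA per cell cannot be told apart.

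**Figure D1:**
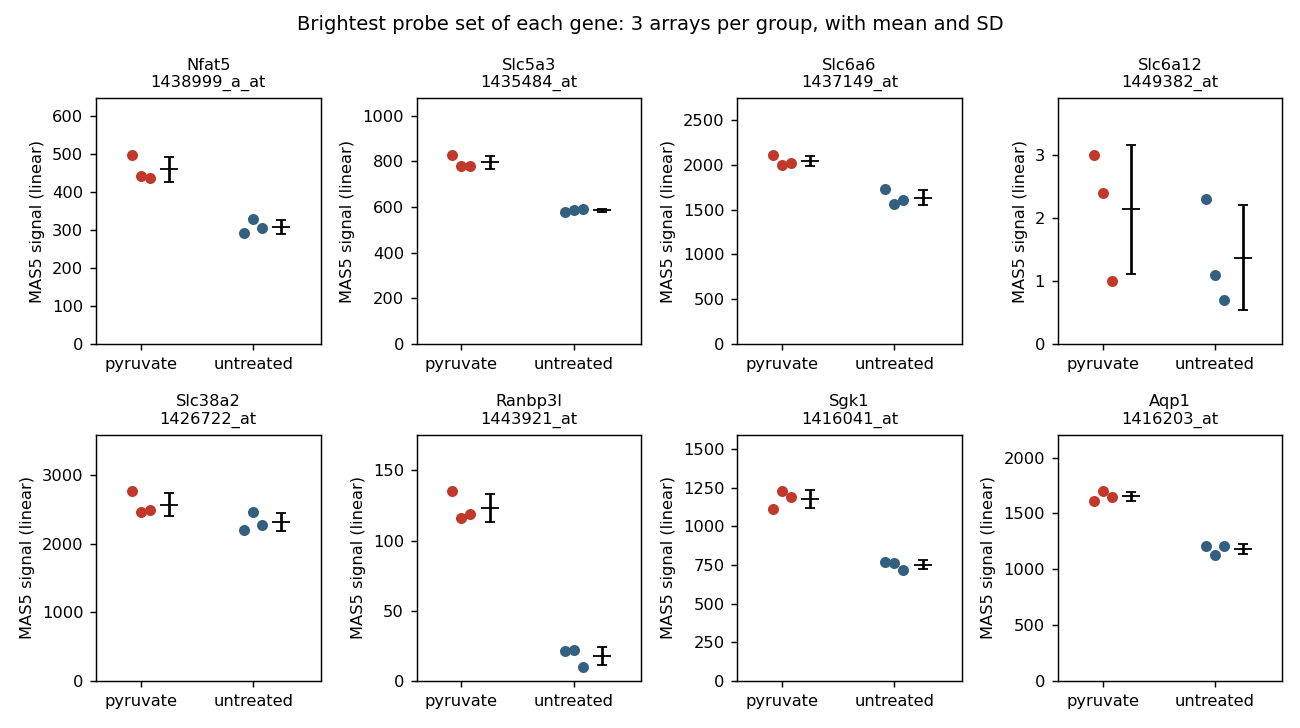
MAS5 signal (linear, y axis) of the brightest probe set of each of the 8 genes, with a point for each of the 3 pyruvate and 3 untreated arrays and the mean ± SD beside them. The pyruvate points lie above all untreated points in 7 panels, closely in Slc38a2, and the groups overlap for Slc6a12, whose signals are 3 or less. Among all tested probe sets, not the brightest of each gene alone, 22.9% had the pyruvate arrays above all untreated arrays.

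Promoter windows of 300 bases, 250 before and 50 from an annotated start, came from RefSeq (build GRCm38.p6) and were read for the core letters of TonE, TGGAAA, on either strand. Of 32851 windows of all genes 21.4% held the core, and of 16 windows of 7 members 4 did. These were 1 of the 5 windows of Slc6a12, 2 of the 6 of Sgk1 and the 1 window of Ranbp3l, and the other 4 windows of Slc6a12 and the other 4 of Sgk1 held none. No window of Slc6a6 was used. The fuller TonE consensus, which contains the core, was in 4.96% of all windows and in 1 member window, the same one of Slc6a12, the member without a measurable signal here. The windows of Nfat5, Slc5a3, Slc38a2 and Aqp1 held no core, and no match says only that these letters are not in the window. The 4 windows with the core are shown so that its place can be seen beside the values, with the core, or its reverse complement where it lies on the other strand, in capitals. Its first base as printed is at -75 from the annotated start for Slc6a12, -248 for Ranbp3l, and -105 and -163 for the 2 of the 6 Sgk1 starts that hold it. Their positions are chr6:121342324-121342623 for Slc6a12, chr15:8967699-8967998 for Ranbp3l, and chr10:21881934-21882233 and chr10:21993640-21993939 for these Sgk1 starts, with other starts of the gene between and beyond them, all on the plus strand.
Slc6a12: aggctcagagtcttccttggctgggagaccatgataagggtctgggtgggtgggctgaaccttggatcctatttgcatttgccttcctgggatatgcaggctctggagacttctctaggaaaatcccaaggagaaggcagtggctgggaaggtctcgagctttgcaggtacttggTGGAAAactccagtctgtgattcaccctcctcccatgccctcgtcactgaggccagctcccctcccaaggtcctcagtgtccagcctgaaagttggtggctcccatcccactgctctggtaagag
Ranbp3l: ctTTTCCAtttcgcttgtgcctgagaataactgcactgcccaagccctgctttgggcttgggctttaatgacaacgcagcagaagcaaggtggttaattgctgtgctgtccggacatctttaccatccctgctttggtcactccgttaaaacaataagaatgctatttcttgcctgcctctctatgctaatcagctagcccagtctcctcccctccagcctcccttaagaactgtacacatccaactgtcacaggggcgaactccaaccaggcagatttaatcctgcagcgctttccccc
Sgk1, window with the core at -105: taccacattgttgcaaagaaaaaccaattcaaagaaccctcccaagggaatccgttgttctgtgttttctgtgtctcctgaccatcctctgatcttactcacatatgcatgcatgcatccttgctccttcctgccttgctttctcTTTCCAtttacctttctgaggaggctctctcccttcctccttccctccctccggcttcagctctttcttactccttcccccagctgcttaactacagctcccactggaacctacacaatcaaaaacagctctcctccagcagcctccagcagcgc
Sgk1, window with the core at -163: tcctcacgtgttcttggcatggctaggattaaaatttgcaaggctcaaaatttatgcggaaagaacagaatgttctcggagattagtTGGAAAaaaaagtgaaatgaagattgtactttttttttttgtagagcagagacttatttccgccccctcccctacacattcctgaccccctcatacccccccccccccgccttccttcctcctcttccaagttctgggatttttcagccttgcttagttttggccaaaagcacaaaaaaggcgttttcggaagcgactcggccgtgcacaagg
A match of letters is a description and not a bound site, and whether NFAT5 occupies these windows was not measured.

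The transcription factor was read on 6 probe sets, which did not all show the same change. On the brightest, 1438999_a_at, the Nfat5 signal was 498.6, 443.1 and 437.8 in pyruvate cells, against 292.6, 328.4 and 304.6 in untreated cells. All pyruvate arrays were above all untreated arrays, and the means were 460 ± 33.7 and 309 ± 18.2 (SD, n = 3 each). The log2 change was 0.55 with a standard error of 0.07 (limma, adjusted p = 0.00013), a fold of 1.47 on that scale. The dimmer 1448966_a_at moved likewise, with signals of 78.4, 57.8 and 49.5 in pyruvate cells, against 37.3, 34.7 and 27.0 in untreated cells. Its log2 change was 0.66 with a standard error of 0.16 (limma, adjusted p = 0.0088), and its groups did not overlap either.

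The other 4 Nfat5 probe sets did not pass. For 1439328_at the signals were 120.1, 87.8 and 88.8 in pyruvate cells, against 88.3, 93.9 and 75.3 in untreated cells, which gave a log2 change of 0.17 (95% interval -0.12 to 0.45). For 1439805_at they were 109.4, 82.2 and 64.6 in pyruvate cells, against 66.0, 80.3 and 65.9 in untreated cells (log2 change 0.21, interval -0.13 to 0.55). For 1451921_a_at they were 45.7, 32.8 and 33.5 in pyruvate cells, against 35.2, 22.1 and 26.6 in untreated cells (log2 change 0.28, interval -0.08 to 0.64). These 3 had higher means with pyruvate, with overlapping groups. The remaining one, 1426029_a_at, lay below the filter, at 16.5, 23.5 and 2.4 in pyruvate cells, against 12.7, 18.3 and 20.6 in untreated cells. It was the 1 member probe set of the 21 with a lower mean in pyruvate cells, and its interval without the filter was wide, -0.84 to 0.43 around -0.20.

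Whether the Nfat5 probe sets differed from each other was asked by fitting the per-array difference of each tested probe set from the brightest of its gene, over all 8932 such pairs on the arrays, of which 17.4% were called. The change at 1439328_at was smaller than that at 1438999_a_at by -0.38 on the log2 scale (limma, adjusted p = 0.048). That call was lost when any of 5 of the 6 arrays was left out, the exception giving an adjusted p of 0.040, and after quantile normalization (adjusted p = 0.055). The differences of 1439805_at, 1451921_a_at and 1448966_a_at were -0.35, -0.27 and 0.11 and did not pass (adjusted p = 0.10, 0.27 and 0.66). Which Nfat5 transcripts each probe set measures was not analysed here. Averaged over its 5 tested probe sets, Nfat5 rose by 0.37 with a standard error of 0.11 (limma over gene means, adjusted p = 0.024).

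**Figure D2:**
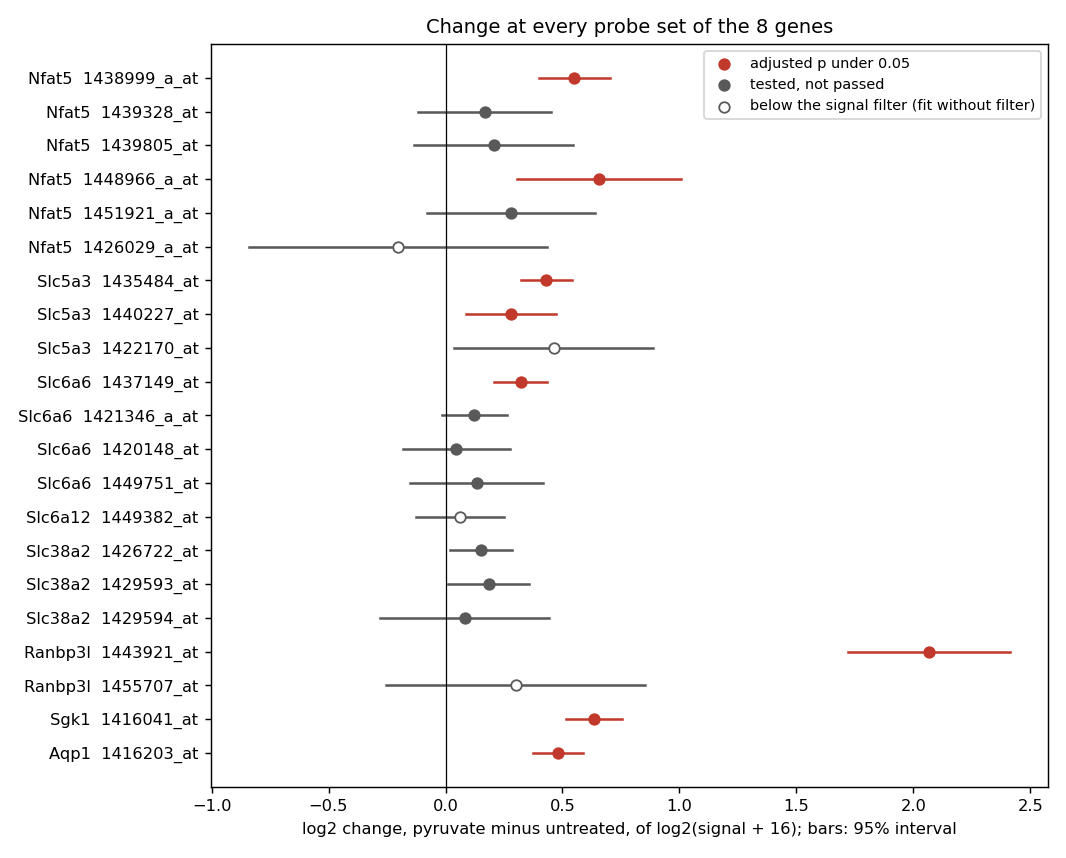
Log2 change, pyruvate minus untreated (x axis), with its 95% interval at each of the 21 probe sets. Red points passed the test, grey points were tested and did not pass, and open points lay below the signal filter and come from the fit without it; 20 of the 21 points lie to the right of 0, and Ranbp3l 1443921_at stands far to the right at 2.07.

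Of the transporters that carry osmolytes into the cell, those for inositol and taurine were higher with pyruvate. Slc5a3 encodes SMIT1, which takes up myo-inositol together with sodium and is a known NFAT5 target. On its brightest probe set, 1435484_at, the signal was 828.4, 777.3 and 781.2 in pyruvate cells, against 578.9, 586.6 and 592.5 in untreated cells. The groups were well apart, and the untreated arrays lay within a narrow range. The log2 change was 0.43 with a standard error of 0.05 (limma, adjusted p = 7.8e-05). A dimmer probe set, 1440227_at, read 191.1, 170.4 and 162.5 in pyruvate cells, against 138.0, 150.9 and 134.1 in untreated cells, and rose by 0.28 (limma, adjusted p = 0.030). This second call was lost in 4 of the 6 fits that left out 1 array (up to an adjusted p of 0.098) and without the signal filter (adjusted p = 0.058). The third, 1422170_at, lay below the filter at 32.0, 20.4 and 28.0 in pyruvate cells, against 20.1, 14.2 and 11 in untreated cells. At all 3 Slc5a3 probe sets every pyruvate array was therefore above every untreated array, as at 14.6% of all non-control probe sets. At 1422170_at the gap was narrow, 20.4 against 20.1, and its change did not pass in the fit without the filter (limma, adjusted p = 0.17). The difference in change of 1440227_at from the brightest, -0.15, did not pass (limma, adjusted p = 0.31).

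Slc6a6 encodes TauT, the sodium- and chloride-coupled taurine transporter, and taurine is an abundant osmolyte of muscle. Its brightest probe set, 1437149_at, read 2109.5, 1998.2 and 2017.9 in pyruvate cells, against 1724.4, 1566.1 and 1606.8 in untreated cells. The groups did not overlap, and the log2 change was 0.32 with a standard error of 0.05 (limma, adjusted p = 0.00070). The second brightest, 1421346_a_at, read 1141.9, 1195.7 and 1231.2 in pyruvate cells, against 1177.0, 1106.4 and 996.2 in untreated cells. Here the groups overlapped, and the log2 change was 0.12 (95% interval -0.02 to 0.26). The remaining Slc6a6 probe sets, 1420148_at and 1449751_at, had log2 changes of 0.05 (-0.18 to 0.28) and 0.13 (-0.15 to 0.42) with overlapping groups. So 1 of 4 Slc6a6 probe sets passed, though 1420148_at and 1449751_at are annotated with the same target sequence. The other 3 had smaller changes, with differences from it of -0.20 for 1421346_a_at, -0.27 for 1420148_at and -0.19 for 1449751_at. These did not pass (limma, adjusted p = 0.087, 0.12 and 0.32), though the unadjusted p was 0.020 for 1421346_a_at and 0.031 for 1420148_at. The mean over the 4 rose by 0.16 (limma over gene means, adjusted p = 0.026).

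Slc6a12 encodes BGT1, which takes up betaine and GABA and is, in kidney cells, a classical NFAT5 target; the fuller consensus stands in 1 of its 5 windows. On the 1 probe set for it, 1449382_at, the signal was 3.0, 2.4 and 1.0 in pyruvate cells, against 2.3, 1.1 and 0.7 in untreated cells. These values are far under the filter signal of 30.3 and the groups overlap, so a change of this transcript in either direction was not resolved.

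Slc38a2 encodes SNAT2, a sodium-coupled carrier of small neutral amino acids that is induced by hypertonic medium and by amino acid shortage. Its brightest probe set, 1426722_at, read 2759.7, 2459.5 and 2485.7 in pyruvate cells, against 2201.9, 2456.9 and 2269.6 in untreated cells. The lowest pyruvate array lay just above the highest untreated one. The log2 change, 0.15 (95% interval 0.02 to 0.28), did not pass (limma, adjusted p = 0.076). It was 0.05 after quantile normalization, 0.03 after cyclic loess and 0.19 after median centring, where it passed (adjusted p = 0.034). Slc38a2 was the brightest member, and the 616 tested probe sets with a mean log2 value between 11 and 12 had a median change of 0.15 as the authors scaled the arrays. The probe sets 1429593_at and 1429594_at, annotated with the same target sequence, had changes of 0.18 and 0.08. They did not pass either (adjusted p = 0.096 and 0.74), though the call for 1429593_at was made without untreated replicate 1 (0.28, adjusted p = 0.011).

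Ranbp3l was the member that rose most. It encodes a relative of the nuclear export cofactor RANBP3, it has been described as a nuclear exporter of the BMP-activated SMADs, and it is known as a gene that high salt induces in kidney cells. Its window above holds the core at the far upstream end. On 1443921_at the signal was 135.0, 115.9 and 118.8 in pyruvate cells, against 21.0, 21.9 and 10.0 in untreated cells. The groups were far apart, and the untreated arrays all lay below the filter signal of 30.3, so the probe set entered the test through its pyruvate values alone. The log2 change was 2.07 with a standard error of 0.16 (limma, adjusted p = 4.4e-06, or 0.00025 in the fit without the filter). Its size rests on a dim baseline and on the pseudocount, being 2.81 with a pseudocount of 1 and 1.20 with one of 64, and the ratio of the mean signals was 6.99. The other Ranbp3l probe set, 1455707_at, was below the filter, with 34.7, 13.0 and 17.4 in pyruvate cells, against 12.9, 19.8 and 9.4 in untreated cells. Its groups overlapped, and its log2 change was 0.30 without the filter (-0.25 to 0.85).

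Sgk1 encodes a kinase of the AKT family that raises the activity and surface level of several ion channels and transporters, and its transcription responds to cell shrinkage, serum, glucocorticoids and TGF-beta. On its 1 probe set, 1416041_at, the signal was 1109.8, 1225.1 and 1192.1 in pyruvate cells, against 770.2, 764.4 and 720.2 in untreated cells. The pyruvate arrays were all higher by a wide margin. The log2 change was 0.63 with a standard error of 0.05 (limma, adjusted p = 9.6e-06), a fold of 1.55 on that scale.

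Aqp1 encodes a water channel of the plasma membrane that is induced by hypertonic medium in kidney cells. Its 1 probe set, 1416203_at, read 1613.4, 1697.1 and 1650.5 in pyruvate cells, against 1206.7, 1125.3 and 1209.2 in untreated cells. The groups did not overlap, and the log2 change was 0.48 with a standard error of 0.05 (limma, adjusted p = 3.4e-05). For Sgk1 and Aqp1 no other probe set was there to compare.

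Counted over probe sets, 8 of the 17 tested were higher, Ranbp3l 1443921_at among them, 0 lower and 9 did not pass, where 16.3% of all tested probe sets were higher and 32.2% were called in either direction. At an unadjusted p under 0.05 the number lower was 0 as well. The groups did not overlap, with pyruvate higher, at 10 of the 21 member probe sets and at 14.6% of all 45037 non-control probe sets. Among tested probe sets this held for 9 of the 17, beside 22.9% of all tested, and 45.4% of all tested were apart in one direction or the other. Ranbp3l 1443921_at is among these 9 as among the 8 called. It reached the filter only through its pyruvate arrays, so it is no support in either count. Mean signals were higher with pyruvate at 20 of the 21, against 49.6% of all non-control probe sets. Probe sets of a gene share its RNA and are no replicates of each other. Of the 4 member probe sets below the filter 0 were called in the fit without the filter, where 1.73% of all probe sets below the filter were called.

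Several facts of the arrays move with the groups and stand beside these changes. The 18 probe sets for spiked-in control transcripts were higher on the pyruvate arrays, by 0.40 to 0.80 on the log2 scale, without overlap of the groups in 17. The changes of Slc5a3, Aqp1, Nfat5 and Sgk1 lie within that range, and the part of array scaling in them was not tested beyond the scalings given here. The tested probe sets with mean log2 values between 5 and 11, where the tested member probe sets other than Slc38a2 1426722_at lie, had median changes from -0.06 to 0.03 by brightness. The log2 changes of the 6 called members under the other scalings were 0.56 to 0.59 for Nfat5, 0.41 to 0.46 for Slc5a3, 0.22 to 0.36 for Slc6a6, 2.09 to 2.11 for Ranbp3l, 0.59 to 0.67 for Sgk1 and 0.40 to 0.52 for Aqp1, and all 6 passed under each. The 3' to 5' signal ratio of Gapdh, a sign of RNA integrity, was 0.79 to 0.81 in pyruvate cells and 0.79 to 0.81 in untreated cells.

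**Figure D3:**
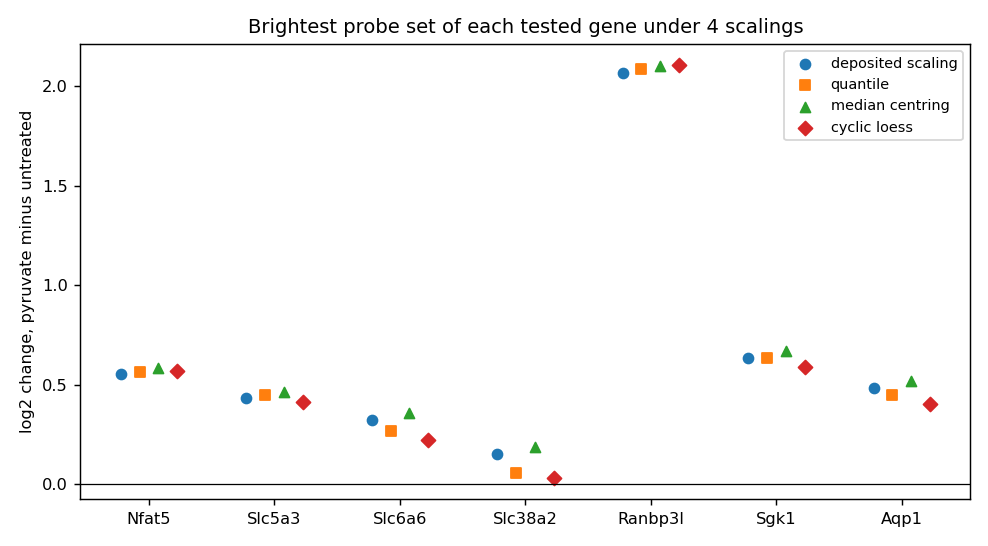
Log2 change, pyruvate minus untreated (y axis), of the brightest probe set of the 7 tested genes under 4 scalings of the arrays. With quantile normalization and cyclic loess the marks come down most for Slc38a2 (0.05 and 0.03) and Slc6a6 (0.27 and 0.22), and the marks of Aqp1 span 0.40 to 0.52.

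The state of the cells also differed. Of 8 myotube markers 7 were lower with pyruvate, among them myogenin (Myog), at 212 ± 40.1 in pyruvate cells and 1738 ± 44.1 in untreated cells (SD, n = 3 each; log2 change -2.96), while Ckm did not pass. Their summed signal was 649 to 834 in pyruvate cells and 5009 to 5393 in untreated cells. The untreated samples, although labelled undifferentiated, thus held myotube transcripts at clear signals. Of all genes tested 14.5% were lower and 20.7% higher. Myoblast markers were present in both groups, and of 6 tested 4 were lower with pyruvate, or 5 after quantile normalization, and 1 higher. Those lower were Vcam1, Myf5, Cdh15 and Itga7 (log2 changes -0.67, -0.65, -0.39 and -0.21). Myod1 was the 1 higher, at 1525 ± 23.3 in pyruvate cells and 1268 ± 77.0 in untreated cells (SD, n = 3 each; log2 change 0.26). Pax7, a marker of muscle stem cells, lay below the filter. The summed signal of the 3 measured markers of fibroblasts or adipocyte precursors (Pdgfra, Pparg and Dpt) was 139 to 203 in pyruvate cells and 110 to 147 in untreated cells, and neither of the 2 tested passed, although 1 did after quantile normalization. That of the 4 kidney markers (Cdh16, Umod, Aqp2 and Slc12a1) was 63.6 to 76.8 in pyruvate cells and 54.2 to 58.9 in untreated cells, and 3 of them were below the filter. The part of the lower myotube content in the members' changes was not tested.

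Around the members, 10 lists of related genes were read, with 92 of 99 genes measured and 71 tested besides Nfat5. Of these 26 were higher, 10 lower and 35 did not pass, which is 36.6% and 14.1% beside 20.7% and 14.5% of all genes. The lists were written with earlier results of these data known, so their counts describe them and are not independent evidence. The same shares of all genes stand beside the counts of the single lists below. Among NFAT5's relatives Nfatc1, Nfatc2, Nfatc3 and Nfatc4, which calcium activates through calcineurin, 0 of 4 passed in either direction, with changes from -0.15 to 0.27, and under median centring Nfatc1 passed. At an unadjusted p under 0.05 there were 2 of these 4.

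Among 15 proteins described as acting on NFAT5, 5 were higher and 3 lower, with a median log2 change of 0.15. These counts were 3 and 2 without the signal filter and 3 and 1 without a variance trend. Kpnb1, importin beta, which carries cargo into the nucleus, was at 1454 ± 321 in pyruvate cells and 1022 ± 71.2 in untreated cells (log2 change 0.48), a call lost without the filter (limma, adjusted p = 0.053) and without a variance trend. Rac1, a small GTPase, was at 4158 ± 191 in pyruvate cells and 3136 ± 156 in untreated cells (0.40, and 0.19 after quantile normalization, where it still passed). Ccm2, a scaffold that links RAC1 to p38 kinase signalling under hypertonic conditions, was lower, at 905 ± 16.3 in pyruvate cells and 1176 ± 9.25 in untreated cells (-0.37). Dhx9, RNA helicase A, described as an inhibitor of NFAT5, was lower by -0.53 on the log2 scale but with overlapping groups, at 962 ± 235 in pyruvate cells and 1376 ± 163 in untreated cells (all SD, n = 3 each). The Dhx9 call too was lost without the filter (limma, adjusted p = 0.061), without a variance trend, with robust variances and without pyruvate replicate 3, and likewise with quantile normalization and no filter. Mapk14, the p38 kinase of this pathway, had a change of -0.10 and did not pass (adjusted p = 0.18). Map2k3, of the same list, was higher by 0.31 on the log2 scale (limma, adjusted p = 0.00071).

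Genes that make or break down osmolytes had 3 of 6 tested higher and 1 lower, with a median of 0.23. Csad, which makes the taurine precursor hypotaurine, was at 88.2 ± 8.62 in pyruvate cells and 54.9 ± 12.7 in untreated cells (log2 change 0.57). Pnpla6 encodes neuropathy target esterase, which makes the osmolyte glycerophosphocholine, and Gdpd5 a phosphodiesterase that breaks it down. Pnpla6 was at 152 ± 3.59 in pyruvate cells and 119 ± 7.54 in untreated cells (0.32), whereas Gdpd5 was at 76.8 ± 4.31 in pyruvate cells and 129 ± 4.11 in untreated cells (-0.65). Aldh7a1, which oxidises betaine aldehyde to betaine, was higher by 0.34 on the log2 scale. Adjusted p-values of these 4 (limma) were 0.011, 0.014, 0.00034 and 0.015. Pnpla6 missed the threshold without untreated replicate 2 (0.057) and Aldh7a1 without untreated replicate 1 (0.066). Under the stricter filter none of these 4 was tested. Of the 2 genes of this list that were, 1 was higher and 0 lower. It was Impa1, which did not pass at the usual filter (log2 change 0.13; limma, adjusted p = 0.065). Akr1b3, the aldose reductase that makes sorbitol, is not analysed here, for want of a probe set with a single symbol.

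Of 7 measured transporters related to the members, 5 lay below the filter and the other 2 were higher. They were the creatine transporter Slc6a8, at 692 ± 40.5 in pyruvate cells and 486 ± 52.8 in untreated cells (log2 change 0.50; limma, adjusted p = 0.00047), and the glycine transporter Slc6a9, at 277 ± 25.8 in pyruvate cells and 210 ± 13.5 in untreated cells (0.37; limma, adjusted p = 0.0047). Among the other SLC38 amino acid transporters 0 of 6 were higher and 1 lower, Slc38a6, with a change of -0.19 (limma, adjusted p = 0.029). That call was lost under median centring, cyclic loess, no variance trend, the replicate block, quantile normalization with no filter and 4 of the 6 fits that left out 1 array (pyruvate replicate 2 or 3, untreated replicate 1 or 2; adjusted p up to 0.11). The number lower ran from 0 to 2 and the number higher from 0 to 1 over the settings tried.

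Among 10 other aquaporins 7 lay below the filter, and Aqp5, a water channel of gland and lung epithelium that is also induced by hypertonic medium, was the 1 higher of the 3 tested. It was at 930 ± 23.5 in pyruvate cells and 539 ± 69.2 in untreated cells (log2 change 0.78; limma, adjusted p = 3.2e-05), a larger value than that of Aqp1, though the difference between them was not tested.

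Of the 9 tested relatives and partners of SGK1, whose median change was -0.18, 1 was higher and 3 were lower, and after quantile normalization 2 were higher and 3 lower. Nedd4, a ubiquitin ligase, rose by 0.29 on the log2 scale (0.16 after quantile normalization, where it still passed), while Pdpk1, the kinase that activates SGK1, had a change of -0.26. Tsc22d3, encoding the glucocorticoid-induced protein GILZ, had a change of -0.32. Ndrg1, a substrate of SGK1 that hypoxia also induces, had a change of -0.31. Adjusted p-values (limma) were 0.00089, 0.0090, 0.0019 and 0.0010. Sgk3 did not pass (-0.30, adjusted p = 0.21), and Sgk2 lay below the filter.

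Beside Ranbp3l, the list of RANBP3 and the BMP-SMAD pathway had 4 of 10 tested higher and 1 lower, with a median of 0.06. Those higher were the BMP target genes Id1 and Id3 (1.23 and 1.00), which hold back muscle differentiation, and the inhibitory SMAD genes Smad6 and Smad7 (0.53 and 0.51). The 1 lower was Xpo1 (-0.26; limma, adjusted p = 0.0016), and Id2 did not pass (0.12, adjusted p = 0.13). Smad7 passed narrowly (limma, adjusted p = 0.044), with signals of 135.7, 137.8 and 157.5 in pyruvate cells, against 96.9, 134.5 and 67.3 in untreated cells. Its call was lost without the filter (adjusted p = 0.14), without a variance trend, with robust variances, with quantile normalization and no filter, and in 5 of the 6 fits that left out 1 array, all but that without untreated replicate 2, and the list's count higher ran from 2 to 4 over the settings. Of the SMADs that BMP receptors activate, Smad1 and Smad5 did not pass (-0.05 and -0.09). Smad9 lay below the filter and was not tested, at 3.3, 12.1 and 15.4 in pyruvate cells, against 16.8, 18.1 and 17.6 in untreated cells. Ranbp3 itself had a change of 0.00 (adjusted p = 0.98).

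Of 8 chaperones that hypertonic medium can induce, 5 were higher and 0 lower (median change 0.29). Cryab, alpha B-crystallin, was at 3405 ± 192 in pyruvate cells and 1861 ± 63.4 in untreated cells (log2 change 0.86), and Hspa1b rose by 0.81. Hspb1 was called at 0.53 on the deposited scale, but the 248 tested probe sets with a mean log2 value of 12 to 14, where it lies, had a median change of 0.43, and after quantile normalization it turned to -0.016 (limma, adjusted p = 0.76). Hspa4l, also named OSP94 for its osmotic induction in kidney, rose by 0.34 (limma, adjusted p = 0.00039), at 1070 ± 47.7 in pyruvate cells and 839 ± 17.5 in untreated cells. After quantile normalization 4 of the 8 were higher, Hspb1 being the call lost.

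Among other genes described as NFAT5 targets or as induced by hypertonic medium, 5 of 8 tested were higher and 1, Car2, lower (-0.32), with a median change of 0.69. One of those higher, S100a4, had a mean log2 value of 12.6, and its change of 0.67 came down to 0.16 after quantile normalization, where it still passed. Ccl2, a chemokine for monocytes, was at 454 ± 21.4 in pyruvate cells and 104 ± 17.0 in untreated cells (log2 change 1.98). The matrix proteoglycan Bgn rose by 0.96, Ptgs2, the inducible cyclooxygenase, by 0.94, and Atp1b1, a subunit of the sodium pump, by 0.71. Slc12a2, the NKCC1 cotransporter that takes up ions when cells shrink, had a change of -0.07 and did not pass (adjusted p = 0.44). Several of these genes answer to other stimuli too, and the lists were written with earlier results of these data known.

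**Figure D4:**
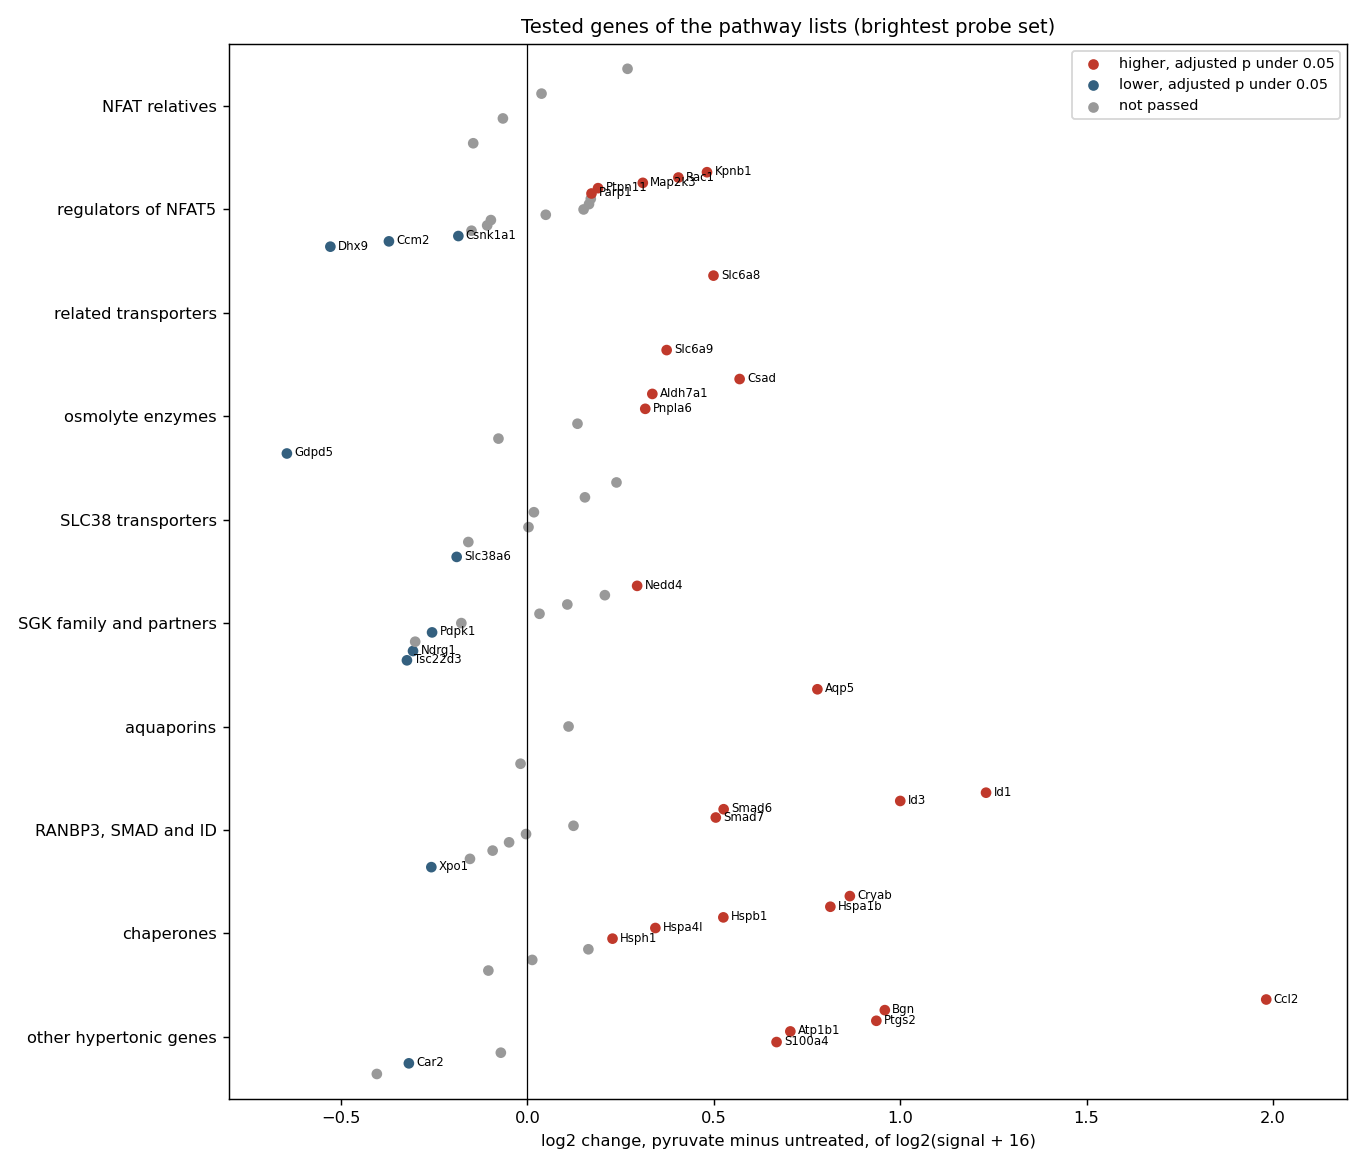
Log2 change, pyruvate minus untreated (x axis), of the tested genes of the 10 lists (rows), with red for higher, blue for lower and grey for not passed. Chaperones and other hypertonic genes lie mostly to the right of 0, with Ccl2 farthest at 1.98, while the SGK list has 3 lower genes and Gdpd5 is the lowest point at -0.65.

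Genes whose values over the 6 arrays, centred on each gene's mean, were closest to those of a member were found by the root mean square distance on the log2 scale. For Nfat5 they were Inhbb, Tcf7l2 and Smad6 (distances of 0.01, 0.03 and 0.03), for Slc5a3 Creb3, Saraf and Pigs (0.01, 0.02 and 0.02), and for Sgk1 Itgb5, Axl and Pdlim2 (0.02, 0.03 and 0.03). For Slc6a6 they were Ndst2, Pcif1 and Crebzf, for Slc38a2 Utrn, Cdk18 and Irf2bp2, and for Aqp1 Npdc1, Znrd2 and Chst12, all within 0.03. Those for Ranbp3l were farther off, namely Srpx2, Hdc and Sgsm3 (0.13, 0.15 and 0.16). The 6 arrays form 2 groups, so genes with a like change between them come out close.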

How the data were processed

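Total RNA of 6 C2C12 samples, extracted with TRIzol and made into biotin-labelled cRNA per the labels' protocols, was hybridised to 1 array each. The authors deposited a linear intensity for each probe set, made with MAS5 according to the submitters' processing notes, of which neither version nor settings are stated. Trimmed of 2% at each end, the mean intensity came to 150.0 on all arrays, so they had been scaled to a common level, which was kept. Arrays carry no read depth, and their number limits the precision. Within a group arrays correlated at 0.990 to 0.993 across tested probe sets, and between groups at 0.974 to 0.977.

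Symbols came from the platform annotation, checked by Entrez identifier against RefSeq (GRCm38.p6), with 34741 of 34945 matched and 0 updated. Signals were taken as log2(signal + 16), and the 22519 non-control probe sets at or above the median mean log2 value were tested with limma 3.58.1 in R 4.3.3 (eBayes with trend, two-sided, Benjamini-Hochberg, threshold 0.05). A gene was read from its probe set of highest mean log2 value. Differences between probe sets of a gene were fitted by limma over all genes. An exact permutation of 3 against 3 arrays cannot go below p = 0.1 and was not used for calls. The steps were tested on simulated data. The members and lists were chosen with earlier results of these data known. Named genes are all members and, from each list, up to 4 called genes with the largest absolute change. Others, such as Mapk14, Map2k3, Sgk3, Slc12a2, Xpo1, Id2 and Ranbp3, were named after their values were seen. Alternatives were other pseudocounts, filters, normalizations, variance models, array weights, a replicate block, gene means, a minimum change and each array left out. Figures were drawn with matplotlib 3.10.9.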

Additional observations from a re-analysis of the deposited data

How the results depend on the processing

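The count of 6 member genes higher stood under the other pseudocounts, no filter, quantile normalization, cyclic loess, the other variance models, array weights, gene means and each array left out, with 7 under median centring and 5 under the stricter filter, which left out Ranbp3l. Member probe sets called higher were 6 to 9 under these settings and 7 to 8 with 1 array left out, and 0 were lower in any. Requiring an absolute log2 change of 0.5 left 4 member probe sets, 3 member genes, and 14 higher and 2 lower genes of the pooled lists, in place of 8, 6, 26 and 10. With 1 array left out, 2 uncalled changes crossed 0, at Slc6a6 1420148_at (-0.025 to 0.17) and Slc38a2 1429594_at (-0.054 to 0.23), and the cause was not tested. Differences in change from the brightest probe set were less settled. With quantile normalization that of Nfat5 1439328_at was -0.37 and missed the threshold, and that of Slc38a2 1429594_at was 0.081, turned in sign. With a pseudocount of 64, which shrinks dim probe sets most, those of Nfat5 1439805_at and 1451921_a_at were both -0.35 and passed, and that of 1448966_a_at turned to -0.12. Leaving out 1 array, added after seeing the data, gave -0.45 to -0.33 for Nfat5 1439328_at, -0.45 to -0.22 for 1439805_at (passing without pyruvate replicate 1), -0.044 to 0.16 for Slc38a2 1429593_at and -0.23 to 0.13 for 1429594_at. No pairing by replicate number was visible, since same-numbered arrays deviated from their group means with correlations of -0.01, 0.01 and 0.02. Such values cannot tell whether the samples were paired. With the replicate block 3510 probe sets were higher and 3407 lower, in place of 3678 and 3572, and the same number of member genes, 6, and of member probe sets, 8, was called. Quantile normalization with no filter, also added, gave 6 genes and 7 probe sets.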

Other observations

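Slc2a13, a proton-coupled inositol transporter, was chosen after its values were seen. It lay below the filter, with mean signals of 39.4 ± 3.94 in pyruvate cells and 20.9 ± 4.24 in untreated cells (SD, n = 3 each). Its groups did not overlap, with pyruvate higher, as at 14.6% of all non-control probe sets. In the fit without the filter it did not pass (limma, adjusted p = 0.051).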
